A study of Mus musculus with 8 samples.

Results

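The interleukin-1 (IL-1) family genes and the gene of caspase-1 were examined in mouse peritoneal tumors treated with a STING agonist. The members were chosen by gene family: the ligands Il1a, Il1b, Il18 and Il33, the receptor antagonist Il1rn, the receptor genes Il1r1, Il1r2, Il1rap and Il1rl1, and the protease gene Casp1. Of these 10 genes, 9 were analysed among the 750 immune-related genes of the panel, and Il33 was not analysed here.

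IL-1alpha and IL-1beta bind the receptor Il1r1, which recruits the accessory chain Il1rap and signals through Myd88 and Irak kinases to NF-kB. Il1rn encodes a soluble antagonist that occupies Il1r1 without signaling, and Il1r2 encodes a decoy receptor. IL-1beta and IL-18 are made as precursors that caspase-1 cleaves once an inflammasome has assembled, so the mRNA does not show how much active cytokine is released, and myeloid cells are a main source of IL-1beta in tumors.

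All animals were wild-type male C57BL/6 mice of 7 to 8 weeks carrying peritoneal tumors grown from 500000 implanted MC38 cells, a mouse colon cancer line. From day 7 after implantation, 4 tumors labelled as control received PBS and 4 labelled STING received RR-CDA (also called MIW815 or ADU-S100), a cyclic dinucleotide that activates STING, by intraperitoneal injections of 15 µg. Whole-tumor RNA, taken 10 days after the first injection, was counted with a NanoString nCounter panel, in which a barcoded probe pair reports each mRNA molecule without amplification. The comparison asks how the local expression of these genes differs after STING activation.

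PBS tumors 2 and 4 differed by less than counting noise (chi-square per degree of freedom 0.404 over 358 genes, against 5.89 to 12.6 for the other pairs within a group). They were averaged and counted as 1 sample, which left n = 3 PBS and n = 4 STING samples. They are called 2 tumors below as labelled, and whether they were separate tumors was not tested. The total count over the 750 genes ran from 241506 to 414698 per sample, and the background, set from the negative control probes, averaged 8.62 counts. Values are counts scaled to the geometric mean of 20 housekeeping genes and are called normalized counts. Probes differ in efficiency, so a gene's counts were compared between samples, and the gene named below as having the most counts in a list is that of the strongest probe, not necessarily of the most mRNA. The study pooled its tumors from separate experiments that the labels do not tell apart, and p-values here measure the spread between these samples, which may be technical.

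In the treated tumors Il1b and Il1rn stood above most or all control tumors, while the receptor genes, Il18 and Casp1 overlapped between the groups. By edgeR's quasi-likelihood test, 2 of 9 members, Il1b and Il1rn, were higher at an unadjusted p under 0.05, where 133 of 750 panel genes were (17.7%). None of the members was lower at that level, where 10 panel genes were (1.33%). After Benjamini-Hochberg adjustment over the 750 genes, no member and no other gene (0%) had an adjusted p under 0.05. The lowest adjusted p on the panel was 0.171, and 143 genes had an unadjusted p under 0.05. DESeq2's Wald test put 52 genes under an adjusted p of 0.05, among them Il1b (0.0215) and Il1rn (0.0284), whose adjusted p ran up to 0.408 over the alternatives. The share of members called is close to that of the panel, so the count of members is not a result about the family.

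**Figure D1:**
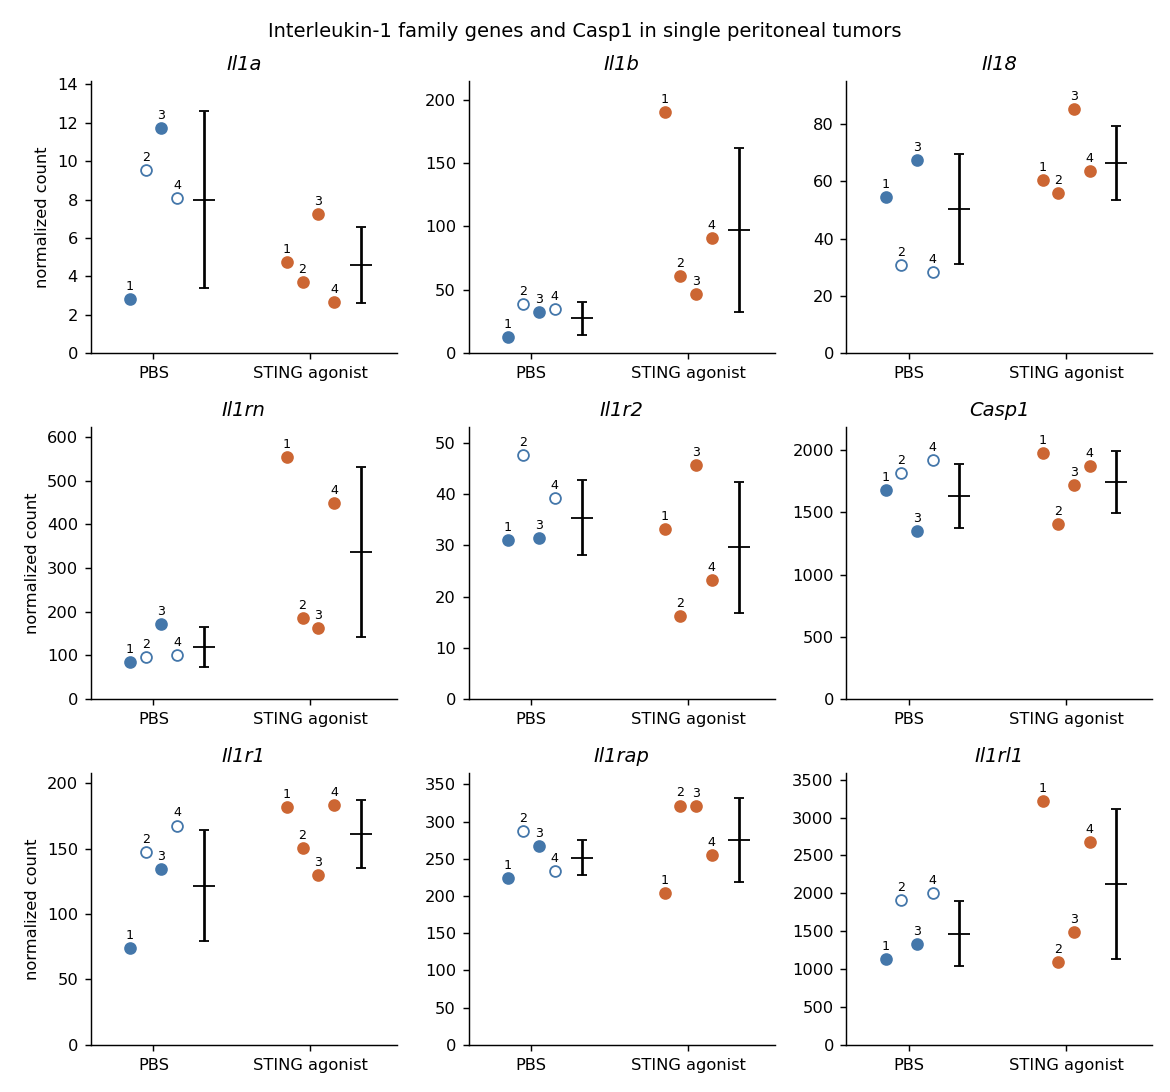
Normalized counts (vertical axes, each starting at 0) of 9 genes in single tumors, with PBS in blue, STING agonist in orange and the tumor number above each point. Open circles are PBS tumors 2 and 4, averaged before the mean ± SD (black, n = 3 and n = 4); Il1b lies between 46.7 and 189.9 in the STING group and between 13.2 and 39.2 in the PBS group.

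Il1b, the gene of the secreted agonist IL-1beta, measured 13.2, 39.2, 32.2 and 35.1 normalized counts in PBS tumors 1 to 4 and 189.9, 60.9, 46.7 and 90.6 in STING tumors 1 to 4. All 4 treated tumors exceeded every control tumor, and STING tumor 1 was far above the other treated tumors. The means were 27.8 ± 13.0 (SD, n = 3) and 97.0 ± 64.6 (SD, n = 4), a ratio of 3.49. The log2 fold change was 1.80 (SE 0.56), rank 19 of 750, with an adjusted p of 0.181 by edgeR. Groups did not overlap for 1 of 9 members on the higher side, Il1b, against 126 panel genes (16.8%), and for 0 members on the lower side, against 11 panel genes (1.47%). With TMM normalization or DESeq2 size factors, the groups overlapped for Il1b too.

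Without STING tumor 1 the log2 fold change of Il1b was 1.25, and without STING tumor 4 it was 1.84. Leaving out these tumors moved the number of panel genes at an unadjusted p under 0.05 from 143 to 84 and 89. In bulk tumor, a change in the number of cells of a type and a change in RNA per cell cannot be told apart. This holds for Il1b and all genes that follow.

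Il1rn encodes the natural antagonist of the IL-1 receptor. It measured 85.5, 97.4, 171 and 101 normalized counts in PBS tumors 1 to 4 and 553, 185, 162 and 448 in STING tumors 1 to 4. STING tumors 1, 2 and 4 lay above every control, whereas STING tumor 3 lay below PBS tumor 3, so the groups overlapped. The means were 119 ± 46.0 (SD, n = 3) and 337 ± 194 (SD, n = 4), a ratio of 2.84. The log2 fold change was 1.50 (SE 0.48), rank 31 of 750, with an adjusted p of 0.186 by edgeR. Without STING tumor 1 it was 1.16, without STING tumor 4 it was 1.33, and without PBS tumor 1 Il1rn no longer had an unadjusted p under 0.05. In that last setting Il1a, which lay at the background, was at that level on the lower side.

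The antagonist and the agonist were set against each other within each tumor, where the scaling cancels apart from the pseudocount of 1. The log2 ratio of Il1rn over Il1b was 2.61 in PBS tumor 1, 2.38 in PBS tumor 3 and 1.37 in the averaged PBS tumors 2 and 4. In STING tumors 1 to 4 it was 1.54, 1.59, 1.77 and 2.29. All treated tumors fell inside the range of the controls, and the difference in group means was -0.32 (exact two-sided permutation p = 0.429, adjusted p = 0.429 over 3 ratios). It was -0.70 without PBS tumors 2 and 4, -0.074 and -0.19 without PBS tumors 1 and 3, -0.49 without STING tumor 4, -0.15 with all 8 tumors separate and -0.094 with a pseudocount of 10. With 35 arrangements of the samples, 0.0286 is the smallest p this exact permutation design allows.

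**Figure D2:**
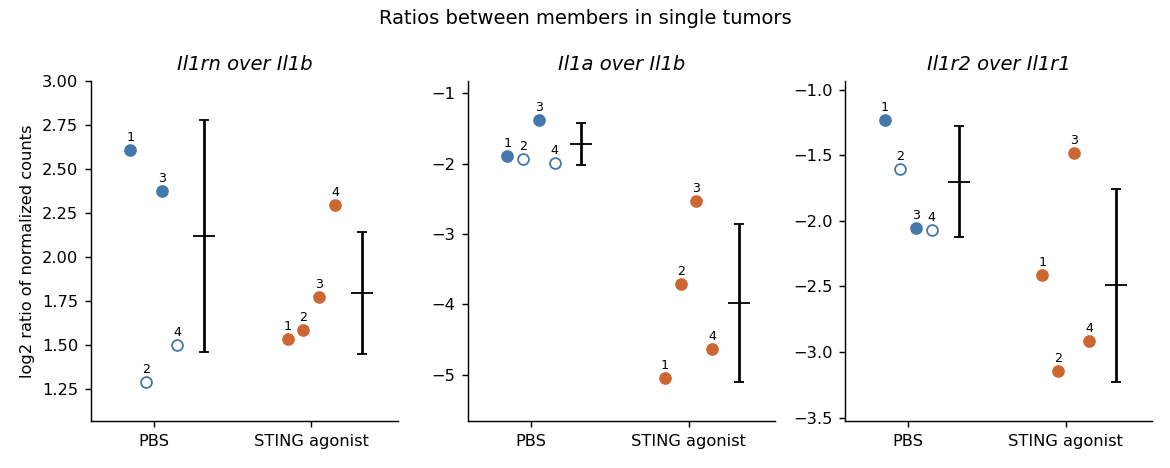
Log2 ratio of normalized counts plus 1 (vertical axes) for 3 pairs of genes in single tumors, with PBS in blue, STING agonist in orange, open circles for PBS tumors 2 and 4, and mean ± SD in black (n = 3 and n = 4). Il1rn over Il1b overlaps between the groups, whereas Il1a over Il1b lies below all controls in the 4 treated tumors, with Il1a itself at the background.

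Il1a encodes IL-1alpha, the other agonist of Il1r1, which is active without caspase-1. It measured 2.82, 9.53, 11.7 and 8.11 normalized counts in PBS tumors 1 to 4 and 4.75, 3.73, 7.27 and 2.69 in STING tumors 1 to 4. Both groups averaged under the background of 8.89 normalized counts, so no fold change is given. The log2 ratio of Il1a over Il1b lay below every control in STING tumors 1 to 4, with a difference in means of -2.26 (exact two-sided permutation p = 0.0571, adjusted p = 0.171 over 3 ratios). Il1b alone already lay above every control in these 4 tumors, and Il1a was at the background. Neither the size nor the p of this difference is therefore a measured change of Il1a.

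Il18 encodes the caspase-1 substrate IL-18. It measured 54.5, 30.7, 67.4 and 28.4 normalized counts in PBS tumors 1 to 4 and 60.5, 55.9, 85.1 and 63.7 in STING tumors 1 to 4. PBS tumor 3 stood above STING tumors 1, 2 and 4, so the groups overlapped. Its log2 fold change of 0.38 (SE 0.33) had an adjusted p of 0.563 by edgeR. It was 0.12 without PBS tumors 2 and 4, 0.24 without STING tumor 3 and 0.65 without PBS tumor 3, where the groups did not overlap, and 0.16 to 0.18 with the other scalings.

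Among the receptor genes, Il1r1, the signaling receptor of IL-1, measured 74.3, 147, 134 and 168 normalized counts in PBS tumors 1 to 4 and 182, 150.3, 129.8 and 183 in STING tumors 1 to 4. STING tumors 1 and 4 were the highest and PBS tumor 1 was the lowest, and the remaining values overlapped. For Il1r1 the log2 fold change was 0.41 (SE 0.27), with an adjusted p of 0.450 by edgeR. It was 0.15 without PBS tumor 1, 0.63 without PBS tumors 2 and 4, and 0.14 to 0.22 with the other scalings.

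Il1r2, the decoy, measured 31.0, 47.6, 31.5 and 39.2 normalized counts in PBS tumors 1 to 4 and 33.2, 16.1, 45.7 and 23.3 in STING tumors 1 to 4. STING tumors 2 and 4 were below every control, and STING tumor 3 was above all controls but PBS tumor 2. A log2 fold change of -0.25 (SE 0.39) was estimated, with an adjusted p of 0.809 by edgeR. It was -0.076 without PBS tumors 2 and 4, -0.054, -0.54 and -0.14 without STING tumors 2, 3 and 4, and -0.54 to -0.44 with the other scalings. The log2 ratio of decoy to signaling receptor, Il1r2 over Il1r1, differed by -0.79 between the groups (exact two-sided permutation p = 0.171, adjusted p = 0.257 over 3 ratios). STING tumors 1, 2 and 4 lay below every control in this ratio, and STING tumor 3 lay among the controls.

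Il1rl1 encodes ST2, the receptor of IL-33, found on mast cells, regulatory T cells and type 2 innate lymphoid cells. It measured 1132, 1915, 1327 and 2003 normalized counts in PBS tumors 1 to 4 and 3219, 1097, 1491 and 2676 in STING tumors 1 to 4. STING tumors 1 and 4 were above every control and STING tumor 2 was below every control. The spread among the treated tumors, 2121 ± 993 (SD, n = 4), was larger than the difference from the controls, 1470 ± 427 (SD, n = 3). The log2 fold change was 0.53 (SE 0.37), with an adjusted p of 0.470 by edgeR. With a sample left out it ran from 0.26 (without STING tumor 1) to 0.79 (without PBS tumors 2 and 4), and it was 0.20 to 0.30 with the other scalings.

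Il1rap, the accessory chain that Il1r1 and Il1rl1 share, ranged from 225 to 287 normalized counts in the PBS tumors and from 204 to 322 in the STING tumors. The treated tumors held both the lowest and the highest value. Its log2 fold change was 0.13 (SE 0.20) with housekeeping scaling and -0.10 with TMM normalization, -0.11 with DESeq2 size factors and -0.041 with the total count, so its direction is not settled. With a sample left out it ran from 0.047 (without STING tumor 2) to 0.25 (without STING tumor 1), with 0.048 without STING tumor 3 and 0.054 without PBS tumor 1.

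Casp1, the protease gene, measured 1677, 1817, 1354 and 1922 normalized counts in PBS tumors 1 to 4 and 1981, 1405, 1719 and 1871 in STING tumors 1 to 4. The ranges of the groups overlapped almost entirely, and PBS tumor 3 was the lowest of all. The means were 1630 ± 256 (SD, n = 3) and 1744 ± 250.2 (SD, n = 4). The log2 fold change was 0.10 (SE 0.17), with an adjusted p of 0.835 by edgeR, and turned to -0.19 with TMM normalization, -0.20 with DESeq2 size factors, -0.11 with the total count and -0.020 without PBS tumor 3.

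**Figure D3:**
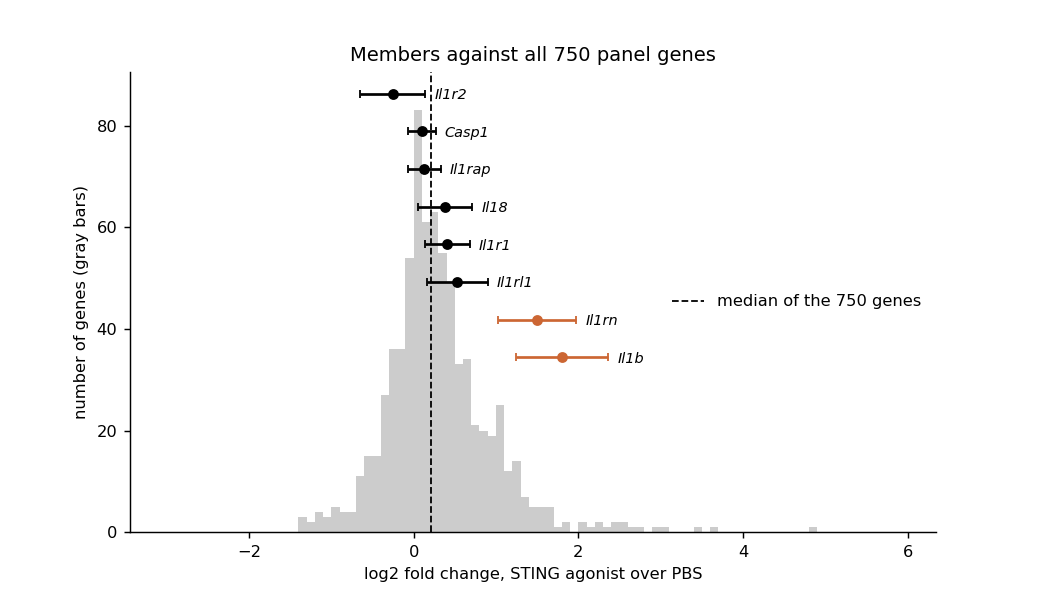
Log2 fold change, STING agonist over PBS (horizontal axis), of the 8 members above the background as points with standard errors, over a histogram of all 750 panel genes (gray, vertical axis in number of genes) with its median as a dashed line at 0.21. Il1b and Il1rn, in orange, had an unadjusted p under 0.05; Il1rap and Casp1 turn sign with other scalings.

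Housekeeping scaling placed most of the panel higher in the treated tumors. The median log2 fold change was 0.21 over the 750 genes, of which 531 (70.8%) were positive, and 0.40 over the 8 members above the background, of which 7 were positive and 5 were above the panel median (Il1rap and Casp1 were positive with housekeeping scaling only). The panel median moved to -0.021 with TMM normalization, to -0.035 with DESeq2 size factors and to 0.0077 with the total count. Of the panel genes at an unadjusted p under 0.05, 93.0% were higher with housekeeping scaling, against 68.5%, 64.3% and 68.7% with these scalings. The counts of higher and lower genes were 133 and 10 with housekeeping scaling, 87 and 40 with TMM normalization, 81 and 45 with DESeq2 size factors and 68 and 31 with the total count, so the panel shares beside the members' counts move with the scaling. Relative to the panel median, Il1b was 1.59 higher on the log2 scale and Il1rn 1.29 with housekeeping scaling, and they were 1.54 and 1.27 higher with TMM normalization. Casp1 was -0.12 and Il1rap -0.083 relative to the panel median with housekeeping scaling.

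**Figure D4:**
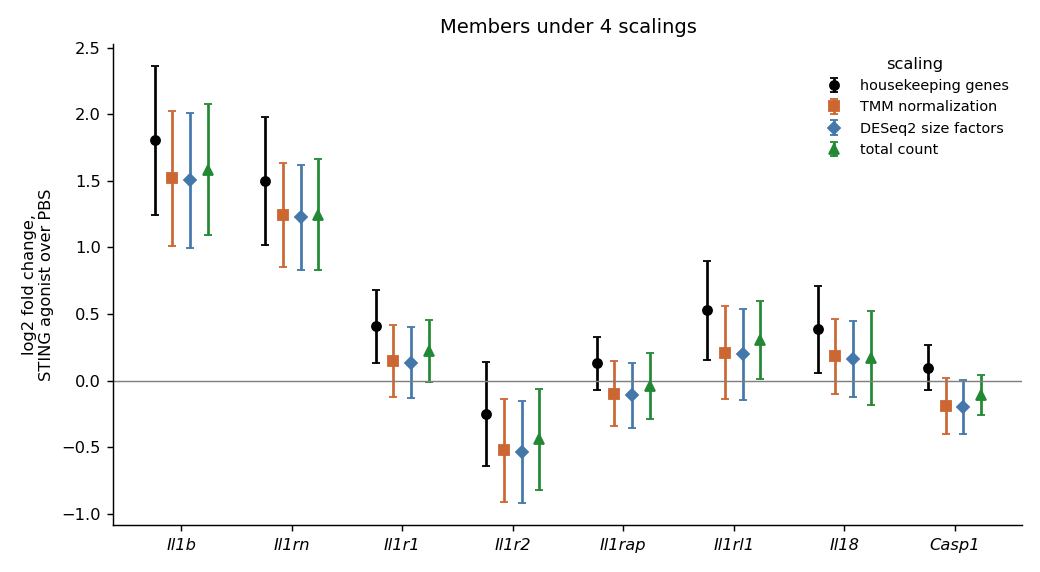
Log2 fold change, STING agonist over PBS, of the 8 members above the background with standard errors (vertical axis) under 4 scalings (symbols). Il1b and Il1rn stay above 0 under each of them, whereas Il1rap and Casp1 are above 0 with housekeeping genes only.

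The pathway genes around the family were read from lists. The list of IL-1 receptor and Toll signaling holds 19 genes, among them adaptors, kinases, NF-kB subunits and the NF-kB inhibitor gene Nfkbia. Of these, 1 was higher at an unadjusted p under 0.05 and none was lower, against 17.7% and 1.33% of the panel. This was Irak2, a kinase of the receptor complex, with 44.1 ± 12.4 normalized counts in PBS (SD, n = 3) and 75.7 ± 21.6 in STING tumors (SD, n = 4), a log2 fold change of 0.78 and an adjusted p of 0.245 by edgeR. The list's median log2 fold change was 0.051, below the panel's 0.21. Of 4 other receptor-side genes, none was at that level, and the largest differences among those with a mean of at least 20 counts were 0.22 for Il18rap, a chain of the IL-18 receptor, and 0.14 for Sigirr, an inhibitory receptor. Il18r1, the other chain of the IL-18 receptor, had a mean under 20 counts and is named because of its values, with 11.1 ± 5.59 in PBS (SD, n = 3) and 19.7 ± 2.03 in STING tumors (SD, n = 4), all 4 above the controls, a log2 fold change of 0.79 and an adjusted p of 0.306 by edgeR. Il1rl2 of that list was under the background, and the list's median of 0.50 rests on these low-count genes.

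Of 5 inflammasome genes, 1 was higher at an unadjusted p under 0.05 (17.7% of the panel), the adaptor gene Pycard, which links sensors to caspase-1. Its counts were low, 6.44 ± 2.57 in PBS (SD, n = 3) and 16.2 ± 5.43 in STING tumors (SD, n = 4), with an adjusted p of 0.199 by edgeR. Its control mean was under the background of 8.89 normalized counts, so it passed the background through the STING tumors alone and no fold change is given. The list's median was 0.31. Of the 5 genes, 4 had a positive log2 fold change. The sensor gene Nlrp3 measured 16.4 ± 10.2 in PBS (SD, n = 3) and 32.1 ± 13.2 in STING tumors (SD, n = 4), and the groups overlapped. Its log2 fold change was 0.93, with an adjusted p of 0.351 by edgeR. Txnip, singled out after its values were seen, went the other way, with a log2 fold change of -0.46 and an adjusted p of 0.274 by edgeR. It lay below every control in STING tumors 1 to 4, as 1.47% of panel genes did. Its means were 309 ± 75.5 (SD, n = 4) in STING tumors and 426 ± 47.5 (SD, n = 3) in PBS.

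Among 17 genes that IL-1 is known to induce in many cells, 4 were higher at an unadjusted p under 0.05, a share near the panel's 17.7%, and none was lower. These were the chemokine gene Ccl2 (log2 fold change 0.63), the cyclooxygenase gene Ptgs2 (1.24), the adhesion gene Icam1 (0.91) and the NF-kB feedback inhibitor gene Tnfaip3 (0.68). Ptgs2 measured 824 and 453 normalized counts in STING tumors 1 and 4, 215 and 223 in STING tumors 2 and 3, and 125 to 224 in the PBS tumors. Thus STING tumors 1 and 4 stood apart and the rest overlapped. Ccl20, Csf2, Csf3 and Sele were under the background, and the list's median was 0.48. Other stimuli induce these genes too.

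STING tumors 1 and 4, the highest in Il1b and Il1rn, were also the highest in Ptprc. This gene, which encodes the leukocyte antigen CD45, measured 110, 43.4, 113 and 41.9 normalized counts in PBS tumors 1 to 4 and 261, 169, 142 and 272 in STING tumors 1 to 4. All treated tumors were above the controls, with STING tumors 1 and 4 highest, and the log2 fold change was 1.24 with an adjusted p of 0.181 by edgeR. The PBS tumors did not keep this order. PBS tumor 1, with 110 for Ptprc, had the lowest Il1b (13.2) and Il1rn (85.5). PBS tumors 2 and 4, the lowest in Ptprc, had 39.2 and 35.1 for Il1b. PBS tumor 3 was the highest control in both Ptprc and Il1rn (171). The part of leukocyte content in the values of Il1b and Il1rn was not tested.

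The monocyte and macrophage list (11 genes, most counts for Cd68) summed to 2056, 1208, 2967 and 1199 normalized counts in PBS tumors 1 to 4 and 3041, 2147, 2492 and 2958 in STING tumors 1 to 4. STING tumor 1 alone exceeded PBS tumor 3. Within the list, Emr1 (log2 fold change 1.29) and Ccr2 (1.48) were higher and Cd163 (-1.32) and Marco (-1.33) lower at an unadjusted p under 0.05. The neutrophil list (8 genes, most counts for S100a8) summed to 340, 670, 404 and 573 in PBS tumors 1 to 4 and 693, 324, 593 and 437 in STING tumors 1 to 4, with Cxcr1, Mpo, Elane and Ltf under the background. Its highest and lowest sums were both in treated tumors, and 0 of 8 genes were at that level. In the cell type lists, counts of genes at that level are to be read against the panel's 17.7% higher and 1.33% lower.

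The T cell list (8 genes, most counts for Cd3d, with Cd4, Foxp3 and Cd5 under the background) summed to 166, 107, 193 and 114 in PBS tumors 1 to 4 and 406, 209.9, 209.8 and 375 in STING tumors 1 to 4. STING tumors 1 and 4 were again the highest, and Cd3e, Cd3g, Cd8a and Cd8b1 were higher at an unadjusted p under 0.05, with Cd8b1 under the background in the PBS mean. The mast cell list (5 genes, most counts for Kit, with Ms4a2 and Tpsab1 under the background) summed to 41.3 to 59.3 in the PBS tumors and 37.3 to 42.1 in the STING tumors. None of its genes had a mean of 20 counts, so the list lay near the background, and its part in the values of Il1rl1 was not tested.

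Of the other lists, the dendritic cell list (4 genes, most counts for Ccr7, Xcr1 under the background) held 1 gene higher at that level, Itgax, whose mean of 4.08 in PBS was under the background and of 17.3 in STING tumors above it. The epithelial list (3 genes, most counts for Cdh1) had no gene at that level. The stromal list (8 genes, most counts for Col3a1) held Col1a1 and Cxcl12 higher and Col3a1 lower, and the endothelial list (7 genes, most counts for Pecam1) held Kdr and Eng higher. The hepatocyte list (10 genes, most counts for Ambp, Masp2 under the background) summed to 1570 in STING tumor 4 against 41.9 to 94.4 in the other tumors. Ambp and F12 of that list were at that level, but their PBS means were under the background and their high values lay in STING tumor 4 alone, where Ambp measured 775 against 2.48 to 11.9 in the other STING tumors. Il1b and Il1rn were higher with or without that tumor, as given above.

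Panel genes were also ranked by how closely their profile over the 7 samples resembled that of each member other than Il1a, using the root mean square difference of centred log2 values among 518 genes with a mean of at least 20 counts. Closest to Il1rn were Il7r at 0.17, Ido1 at 0.22 and Slamf7 at 0.24, and closest to Il1b were Il7r at 0.38, Ptgs2 at 0.39 and Ido1 at 0.42. Il7r encodes the IL-7 receptor alpha chain, Ido1 a tryptophan-degrading enzyme and Slamf7 a leukocyte surface receptor. All of these profiles peak in STING tumor 1, with STING tumor 4 next.

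**Figure D5:**
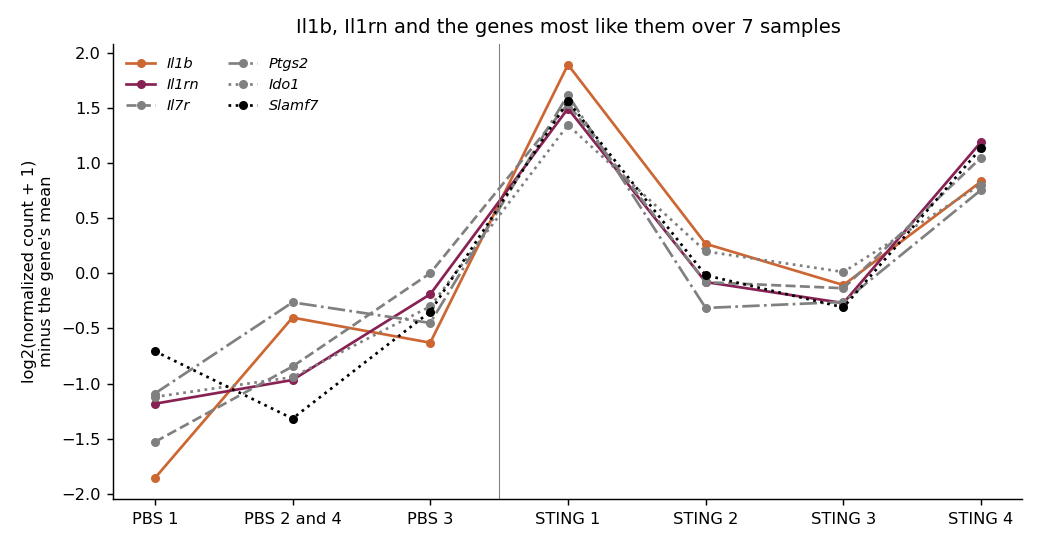
Log2 of normalized count plus 1, minus each gene's mean (vertical axis), over the 7 samples (horizontal axis) for Il1b, Il1rn and the genes with the closest profiles. Each line has its highest point in STING tumor 1 and its next highest in STING tumor 4.

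For the other members the closest genes were Bmi1 (0.10), Vegfa and C1s1 for Il1r1, Tfeb (0.25), Anxa1 and Cd81 for Il1r2, and Stat5b (0.17), Xbp1 and Smn1 for Il1rap. For Il1rl1 they were Mef2c (0.26), Ccl7 and Ccr7, and for Il18 they were Il4ra (0.16), Cd38 and Fcgr3. Casp1 lay closest to Il18rap at 0.084, then Tnfsf12 and Axl, and its own profile varied by 0.20 about its mean. The profiles of Il1r1, Il1r2, Il1rap, Il1rl1 and Il18 varied by 0.41, 0.46, 0.22, 0.56 and 0.43, so the closest gene to Il1rap was only a little nearer than a flat profile would be.

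In the RefSeq annotation of GRCm38.p6, Il1a and Il1b are neighbours on chromosome 2, where Il1rn also lies, and Il1r2, Il1r1, Il1rl2, Il1rl1, Il18r1 and Il18rap follow each other on chromosome 1. Casp1 lies next to Casp4 on chromosome 9, where Il18 also lies. Promoter windows, from 250 bases before to 50 after an annotated start, were matched for all 9 members. Those of Il1b and Il1rn are shown because these genes were the highest members relative to the controls, and that of Il1a because it adjoins Il1b and was at the background. Sequences are from RefSeq (GRCm38.p6), 5′ to 3′ on the gene's strand, and capitals mark matches to the letters searched.
Il1b, minus strand, chr2:129371090-129371389: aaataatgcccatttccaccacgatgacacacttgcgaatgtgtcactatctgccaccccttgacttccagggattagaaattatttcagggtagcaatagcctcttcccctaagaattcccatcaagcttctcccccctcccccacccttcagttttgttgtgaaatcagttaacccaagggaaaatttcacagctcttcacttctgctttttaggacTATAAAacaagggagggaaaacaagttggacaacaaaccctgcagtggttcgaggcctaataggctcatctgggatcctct
Il1a, minus strand, chr2:129309923-129310222: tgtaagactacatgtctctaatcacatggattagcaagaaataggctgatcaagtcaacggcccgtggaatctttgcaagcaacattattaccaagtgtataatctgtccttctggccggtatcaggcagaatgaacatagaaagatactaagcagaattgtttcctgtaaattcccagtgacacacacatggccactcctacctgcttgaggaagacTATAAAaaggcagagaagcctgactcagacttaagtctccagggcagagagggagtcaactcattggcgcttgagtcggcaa
Il1rn, first start, plus strand, chr2:24336610-24336909: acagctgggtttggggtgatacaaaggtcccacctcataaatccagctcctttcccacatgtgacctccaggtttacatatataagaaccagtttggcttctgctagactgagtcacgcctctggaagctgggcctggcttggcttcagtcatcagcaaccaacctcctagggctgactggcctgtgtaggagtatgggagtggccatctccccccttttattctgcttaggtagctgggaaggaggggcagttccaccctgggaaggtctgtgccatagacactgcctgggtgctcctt
Il1rn, last start, plus strand, chr2:24345121-24345420: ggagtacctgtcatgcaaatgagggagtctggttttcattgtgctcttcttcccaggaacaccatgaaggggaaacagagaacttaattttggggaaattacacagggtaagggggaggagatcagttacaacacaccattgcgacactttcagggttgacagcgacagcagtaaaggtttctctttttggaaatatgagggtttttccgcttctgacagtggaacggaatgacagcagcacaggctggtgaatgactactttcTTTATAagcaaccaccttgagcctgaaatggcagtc

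The letters searched on both strands were TATAAA, a core promoter element, and TTCNNNGAA, the pattern of STAT sites, which occurred in 13.6% and 8.30% of 32851 promoter windows of the genome annotation. TATAAA began 31 bases before the start of Il1b and 32 bases before that of Il1a, on the gene's strand, and the last Il1rn window held it on the opposite strand, after the start. The first Il1rn window, and a middle one that overlaps the last and is not shown, held neither. Among the other members, Il18 held TATAAA on the opposite strand before its start, and TTCNNNGAA was found for Il1r2 alone. A match describes the letters and is not evidence of a site in use.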

How the data were processed

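RNA from 8 whole tumors was counted by the authors on a NanoString nCounter mouse panel, and the deposited values are raw counts of 784 probes per tumor, which the study normalized to housekeeping genes for its own analysis. The 750 genes were analysed here, with 20 housekeeping, 8 negative and 6 positive control probes set apart. Background was the mean plus 2 SD of the negative probes in each tumor; a gene was under it when its mean count was. No background was subtracted and no low-count filter was used.

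Counts were scaled by the geometric mean of the housekeeping genes. PBS tumors 2 and 4 were averaged. edgeR 4.0.16 (R 4.3.3; glmQLFit, glmQLFTest) compared STING with PBS over 750 genes with Benjamini-Hochberg adjustment; the script was tested on simulated data. Ratios between members, with a pseudocount of 1, had exact permutation tests (Python 3.11.15, scipy 1.17.1); figures used matplotlib 3.10.9. Alternatives were TMM, DESeq2 1.42.0 size factors, total count, genes with a mean of at least 20 counts, DESeq2's Wald test, all 8 tumors kept separate with or without a replicate block, a pseudocount of 10, and each sample left out.

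All members were named. In pathway lists (IL-1 receptor and Toll signaling, other receptors, inflammasome, IL-1-induced genes), those at an unadjusted p under 0.05 were named. Where a list had none, the largest differences among genes with a mean of at least 20 counts were named. In cell type lists, the gene with the most counts and those under the background were named. So were the 3 genes closest in profile to each member with a mean of at least 20 counts. The genes at an unadjusted p under 0.05 in cell type lists, Txnip, Nlrp3 and Il18r1 were named after their values were seen. The members and lists were chosen with earlier results of these data known. A further cell type list is not reported here.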

Additional observations from a re-analysis of the deposited data

How the results depend on the processing

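Members at an unadjusted p under 0.05 numbered 2 in each of 14 alternatives. Il1b was among them in all 14, with log2 fold changes from 1.25 to 2.07, and Il1rn in 13, from 1.16 to 1.87. Without PBS tumor 1, Il1rn was not among them and Il1a was, on the lower side. By DESeq2's Wald test the adjusted p was 0.0215 for Il1b and 0.0284 for Il1rn, and over the alternatives it ran from 0.0215 to 0.408 and from 0.0284 to 0.408. The panel count at an unadjusted p under 0.05 ranged from 84 (without STING tumor 1) to 160 (without PBS tumor 3) with a sample left out, and was 201 with all 8 tumors separate. With a sample left out, higher genes numbered 77 (without STING tumor 1) to 153 (without PBS tumor 3). Lower genes numbered 7 (without PBS tumor 3 or STING tumor 1) to 21 (without STING tumor 3), so the panel's lower share moves too. At an adjusted p under 0.05 the panel count was 52 by the Wald test, and 0 to 7 with a sample left out (7 without STING tumor 3, 1 without PBS tumor 3). Members with groups that do not overlap numbered 0 with TMM normalization, 0 with DESeq2 size factors and 1 to 3 with a sample left out. The panel's shares of 16.8% higher and 1.47% lower hold for housekeeping scaling with all 7 samples. Those of the other settings were not counted, and fewer samples overlap less readily in any gene. These numbers are therefore not a result about the members. The log2 fold change of Il1rap reversed to -0.097 (TMM), -0.11 (size factors) and -0.041 (total count), and that of Casp1 to -0.19, -0.20 and -0.11; with a sample left out Casp1 ran from -0.020 to 0.20. The cause was not tested. The log2 ratio of Il1a over Il1b, at the background for Il1a, was -1.67 with a pseudocount of 10, -2.74 to -1.90 with a sample left out and -2.18 with all 8 tumors separate; the exact permutation p was 0.0286 in the last, which counts PBS tumors 2 and 4 as separate samples, and 0.0571 to 0.133 in the others, where a left-out sample leaves too few arrangements to reach 0.05.

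With the replicate block over all 8 tumors, 172 panel genes were at an unadjusted p under 0.05, and the log2 fold change was 1.51 for Il1b and 1.43 for Il1rn. Same-numbered tumors deviated with r of -0.058, -0.087, -0.28 and -0.12, so the numbers were not taken to pair them. The ratio of Il33 over Il1rl1 was not analysed here. Depth limits Il1a, with 3 to 16 counts a tumor, most.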
